A study of Mus musculus with 6 samples.

Results

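Gr1+Mac1+ bone marrow cells of mice with no intact Diap1 (Diap1 -/-, called KO) were compared with the same fraction of mice that keep 1 intact copy (Diap1 +/-, called Het). The comparison takes in every gene locus whose level carried the status OK in both libraries, which was 23448 of 23746 loci. Of these, 11177 were measured, which here means 1 locus per gene symbol and a mean level of at least 1 FPKM over the 2 libraries. FPKM is the number of sequenced fragments scaled to transcript length and to the library's total.

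The series holds 6 RNA libraries, 1 for each of 3 genotypes (the third is WT, with both copies intact) in each of 2 marrow fractions. All mice were C57BL/6 and 12 weeks old, and each genotype's marrow was a pool from 4 mice. Cells positive for both Gr1 and Mac1 were taken with magnetic beads, and uncommitted progenitors (Lin-) were then obtained from the remainder by negative selection. The labels give neither the sex of the mice nor the part of Diap1 that was deleted. With 1 library a side there was no replicate, so no test between genotypes was possible and every value below is an effect size. The deposited interval of each level comes from within 1 library and says nothing of the spread between mice.

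Diap1, today called Diaph1, encodes the formin mDia1. Formins sit at the growing end of unbranched actin filaments and speed their assembly, and mDia1 does so when bound by the GTPase RhoA. Neutrophils and monocytes need actin assembly to migrate, adhere and engulf particles. Gr1 is an epitope of Ly6 proteins of granulocytes and monocytes, and Mac1 is the integrin of the Itgam and Itgb2 chains. In bone marrow this gate takes mainly maturing neutrophils with monocytes and eosinophils. Signals of interferon reach their target genes through STAT and IRF proteins, which bind short paired GAAA motifs before the gene's start. The erythroid factor Gata1 binds sites such as AGATAA.

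Genes of the type I interferon response stood higher and genes of the red cell membrane lower in the KO library, as described below, and parts of their promoters are shown here because those motifs stand in them. Sequences come from RefSeq's promoter table (build GRCm38.p6, 250 bases before each start searched on both strands), which matched 41 measured interferon genes and 18 red cell membrane genes. The capitals mark the element, read on the gene's strand. An interferon element (GAAA, any 2 bases, GAAA) stood in 19 of 41 interferon genes, 46.3%, against 3.46% of all 27025 promoters of the table.
Isg15 (chr4:156200840-156200919, minus strand): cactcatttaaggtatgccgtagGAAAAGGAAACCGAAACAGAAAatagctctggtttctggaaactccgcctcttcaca
Ifit3 (chr19:34583372-34583451, plus strand): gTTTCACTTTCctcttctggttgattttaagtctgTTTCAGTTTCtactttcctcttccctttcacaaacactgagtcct
Ifit1 (chr19:34640769-34640848, plus strand): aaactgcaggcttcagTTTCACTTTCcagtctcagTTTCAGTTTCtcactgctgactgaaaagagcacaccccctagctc
Rsad2 (chr12:26456528-26456607, minus strand): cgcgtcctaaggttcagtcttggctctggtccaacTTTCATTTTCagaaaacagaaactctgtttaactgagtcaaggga
The motif AGATAA stood in 5 of 18 red cell membrane genes, 27.8%, against 11.4% of all promoters.
Kel (chr6:41704339-41704418, minus strand): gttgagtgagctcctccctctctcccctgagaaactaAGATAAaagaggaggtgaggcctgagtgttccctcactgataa
Trim10 (chr17:36869374-36869453, plus strand): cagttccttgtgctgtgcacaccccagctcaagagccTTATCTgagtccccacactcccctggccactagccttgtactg
In Isg15 the elements overlap one another, and in Ifit3 and Ifit1 a pair lies within the stretch shown. The 19 interferon genes with an element had a median log2 ratio of KO to Het of 0.27, with 8 of 19 higher beyond their intervals, and the 22 without had 0.18, with 10 of 22. A match is a description of letters and shows neither binding nor use of the site.

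The gate's own markers were abundant in both libraries. Granulocyte markers (11 of 12 matched; Ly6g was not analysed here) summed to 131184 FPKM in Het and 159047 in KO, and monocyte and macrophage markers to 1807 and 2064 FPKM. RNA of cells outside the gate was present as well. Erythroid markers summed to 16709 and 17030 FPKM, most of it globin, B lineage markers to 311 and 287 FPKM, and megakaryocyte markers to 53.2 and 38.8 FPKM. No marker of the 9 cell types examined was at 0 in either library. In such a mixture, fewer cells of a type and less RNA per cell cannot be told apart.

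Most genes stood at nearly the same level in both genotypes. Ratios below are log2 of (KO FPKM + 1) over (Het FPKM + 1), so 1 is 2-fold and low genes are understated. Over the 11177 measured genes the median ratio was 0.0048, 90% lay from -0.37 to 0.38, and the quartiles were -0.14 and 0.14. A gene was counted as past the size rule when it differed at least 2-fold, reached 5 FPKM in 1 library and had deposited intervals that did not overlap. By that rule 7 of 8355 loci (0.0838%) were higher in KO and 8 (0.0958%) lower. A wider rule of 1.5-fold, otherwise the same, held 69 higher loci (0.826%) and 44 lower loci (0.527%). Intervals alone lay apart for many more genes, 1062 higher (9.5%) and 1023 lower (9.15%), and these shares are the background for the counts in each gene group.

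**Figure D1:**
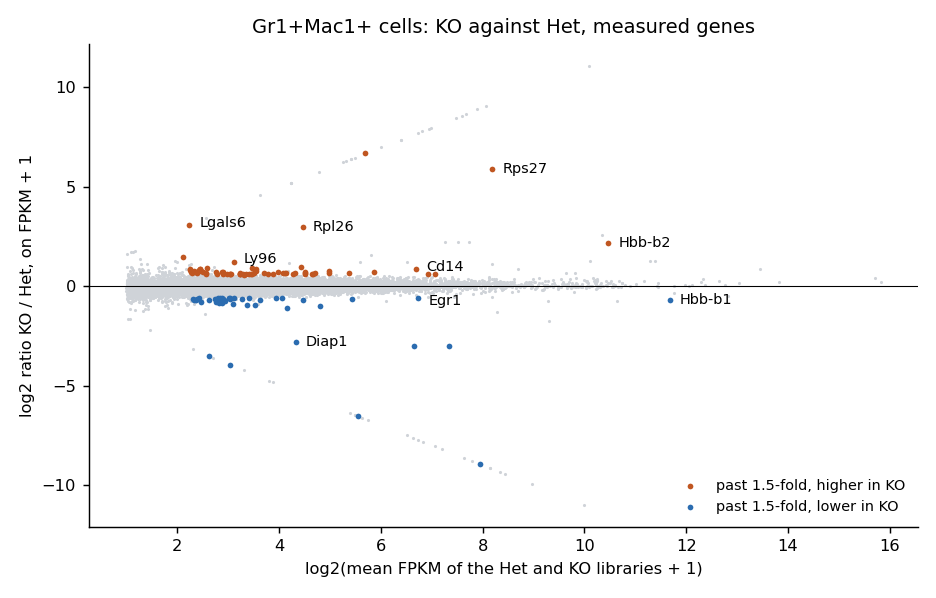
Each point is 1 measured gene; the horizontal axis is log2 of its mean FPKM over the Het and KO libraries plus 1, and the vertical axis its log2 ratio of KO to Het. Genes past the wider rule of 1.5-fold are coloured by direction, and most of the cloud lies between -0.37 and 0.38. Grey points far from 0 are loci whose intervals overlap or whose level is below the limit of that rule. The 53 loci at least 4-fold apart with overlapping intervals are all small RNA loci.

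Diap1 was among the 8 lower loci of the size rule, of which the others were 5 small RNA loci, 1 small RNA host gene and 1 unnamed transcript. In the Gr1+Mac1+ libraries it stood at 57.1 FPKM in WT, 34.1 FPKM (interval 32.5 to 35.6) in Het and 4.07 FPKM (3.49 to 4.66) in KO. The KO level was 11.9% of the Het level, and the log2 ratio was -2.79 ± 0.09 (counting SE). The Lin- libraries gave the same order, with 36.0 FPKM in WT, 24.2 in Het and 6.07 in KO. The level was lower with each missing copy, and some signal remained in KO in both fractions. Diap1 lies on chromosome 18 (mm10, 37844825 to 37935411); whether the remaining fragments come from outside the deleted part was not tested.

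Among the 9 measured formins, 7 had a lower level in KO and 4 of those lay apart in their intervals, Diap1 included. The 4 are 44.4% of the list, beside 9.15% of all measured genes. WT stood below Het in 3 of the 4 genes apart and above KO in all 4. The list's median ratio was 0.07 for WT against Het (5 of 9 positive) and -0.04 for KO against WT (7 of 9 negative). Fmnl1, the most abundant formin of these cells, stood at 160.2 FPKM in Het and 137.6 in KO, with 141.5 in WT. Inf2 went from 9.33 to 7.01 FPKM and Fhod1 from 13.03 to 10.60 FPKM. Diap2 and Fmnl2 were slightly higher, 6.09 against 6.58 and 8.59 against 9.31 FPKM, with overlapping intervals. No other formin was past 1.5-fold in either direction.

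The actin cytoskeleton around mDia1 differed little. Actb, the main cytoplasmic actin, stood at 3494 FPKM in Het and 3482 in KO, and Actg1 at 1501 and 1503. Tmsb4x, which holds actin monomers, was higher in KO, at 5771 against 7000 FPKM, a log2 ratio of 0.28. Neither the 27 genes of the actin monomer and bundling list, nor the 21 of the Arp2/3 complex, nor the 27 of the RhoA and ROCK pathway had a member past 1.5-fold. Their medians were -0.0029, 0.018 and 0.0061. Of 20 measured targets of the transcription factor SRF and its MRTF cofactors, 15 were lower in KO. Of these, 5 lay apart (25% of the list, beside 9.15% of all measured genes). Among them were Flna (420.1 to 342.4 FPKM) and Tln1 (174.8 to 137.6 FPKM), which link actin to membranes and integrins. WT stood below Het in all 5 genes apart and above KO in 4. The list's median ratio was -0.08 for WT against Het (16 of 20 negative) and 0.02 for KO against WT (13 of 20 positive).

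Cd14 was higher in KO. It encodes the lipid-anchored receptor that hands bacterial lipopolysaccharide to Tlr4 and Ly96. Its level was 16.9 FPKM in WT, 71.4 FPKM (67.4 to 75.4) in Het and 131.8 FPKM (125.8 to 137.8) in KO, so the 3 intervals lay apart in the order of missing Diap1 copies. From Het to KO this was 1.85-fold in plain FPKM, a log2 ratio of 0.87 ± 0.05, short of 2-fold. In the Lin- libraries Cd14 was low, at 0.284 FPKM in WT, 1.95 (1.27 to 2.63) in Het and 2.37 (1.60 to 3.14) in KO. There the Het and KO intervals overlapped. The Het Lin- library also held more granulocyte marker RNA, 7745 FPKM against 67.4 in WT and 81.9 in KO. Whether that bears on its Cd14 level was not tested. Cd14 lies 1.12 Mb from the start of Diap1 on chromosome 18 (36725067 to 36726654). Over the 64 other measured genes within 5 Mb of that start, the median ratio was 0.06. Among these 64, 9 were higher and 6 lower beyond their intervals. Over all measured genes the shares were 9.5% higher and 9.15% lower. Cd14 and Egr1, at 2.98 Mb, were past 1.5-fold. A link between position and level was not tested.

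Ly96 (MD-2), the partner of Tlr4 that binds lipopolysaccharide, was higher as well. It stood at 4.23 FPKM (2.42 to 6.05) in Het and 11.0 FPKM (7.87 to 14.2) in KO, with 8.29 in WT. The ratio of 2.61-fold in plain FPKM rested on few fragments, an implied 21.7 in Het and 48.7 in KO, and its counting SE was 0.31 on the log2 scale. Corrected for GC content and length as described below, the log2 ratio of Ly96 was 0.94, short of 2-fold. Tlr4 itself stood at 6.83 and 6.72 FPKM, and the adaptor Myd88 at 57.2 and 52.9 FPKM. In the whole list of lipopolysaccharide and Toll-like receptor genes, 15 of 32 measured members were higher and 17 lower, with a median of -0.03. Ly86 (MD-1) was higher, at 61.9 against 76.4 FPKM, and so was Tlr13, at 21.17 against 24.98 FPKM. Tlr9, the endosomal sensor of unmethylated DNA, was lower, at 8.76 against 5.42 FPKM. Cd14, Ly96, Ly86 and Tlr13 are the 4 members apart above (12.5% of the list, beside 9.5% of all measured genes). Tlr9 is the 1 apart below (3.1%, beside 9.15%).

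Interferon response genes were higher in KO across most of the list. Of 53 measured members, 49 had a positive ratio, 23 lay apart in their intervals and none lay apart in the other direction; the median was 0.22, against 0.0048 for all measured genes. Those 23 are 43.4% of the list, beside 9.5% of all measured genes. Rtp4 and Usp18 were past the wider rule, though not after the GC and length correction described below (0.56 and 0.53). Rtp4 stood at 12.4 FPKM in Het and 20.2 in KO, and Usp18, the protease that removes Isg15 and dampens interferon receptors, at 6.51 and 10.3 FPKM.

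Other interferon members, chosen after their values were seen, included effectors that bind viral RNA or block virus assembly. Ifit1 went from 2.14 FPKM (1.63 to 2.65) in Het to 4.80 FPKM (3.97 to 5.64) in KO, a 2.24-fold difference in plain FPKM, below the level limit of the size rule. Ifit3 stood at 6.94 and 10.4 FPKM, and Rsad2 (viperin) at 15.5 and 21.6. Isg15, the ubiquitin-like modifier, was at 19.95 FPKM (16.7 to 23.2) and 28.55 FPKM (24.3 to 32.8). Samd9l and Slfn1 were at 26.3 and 37.7 FPKM and at 54.8 and 77.6 FPKM. All of these intervals lay apart.

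The most abundant members had small positive ratios. Ifitm6 stood at 950.4 and 1021 FPKM, Ifitm3 at 434.2 and 478.2, and Slfn2 at 196.0 and 220.2. The factors that carry the signal also had small positive ratios, with overlapping intervals. Stat2 was at 14.96 and 15.76 FPKM, Irf9 at 34.0 and 37.6, and Irf7 at 31.4 and 35.7 FPKM. In the WT library, which plays no part in the ratio, 22 of the 23 genes apart stood above Het and 5 of them above KO as well. The interferon list's median ratio was 0.15 for WT against Het (46 of 53 positive) and 0.08 for KO against WT (36 of 53 positive). WT had Isg15 at 29.15 FPKM, Ifit1 at 4.39 FPKM and Usp18 at 8.69 FPKM. MHC class I genes, many of which also respond to interferon, had a median of 0.05 over 22 members, with H2-K1 at 361.8 and 416.4 FPKM and B2m at 999.8 and 1138 FPKM.

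Immediate-early genes, which cells switch on within minutes of a stimulus, were lower in KO. Of 28 measured members, 24 had a negative ratio, 16 lay apart below and 2 above, and the median was -0.23. The 16 are 57.1% of the list, beside 9.15% of all measured genes. Egr1, a zinc finger factor, stood at 127.8 FPKM (124.2 to 131.4) in Het and 83.4 FPKM (80.2 to 86.6) in KO, with 103.0 in WT. Dusp5, a phosphatase of ERK, stood at 6.02 and 3.05 FPKM. These 2 were past the wider rule, Egr1 not after that correction (-0.48). WT stood below Het in 17 of the 18 genes apart, and above KO in 14. The list's median ratio was -0.17 for WT against Het (26 of 28 negative) and -0.04 for KO against WT (16 of 28 negative).

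AP-1 subunits were among the genes that were lower. Jun stood at 342.7 FPKM in Het and 235.6 in KO, Fosb at 206.0 and 139.4, and Junb at 139.1 and 108.2. Fos, the most abundant member, differed less, at 1256 and 1144 FPKM, a log2 ratio of -0.13 ± 0.01. Rgs2 and Gadd45a lay apart in the other direction, at 123.0 and 133.9 FPKM and at 94.8 and 106.2 FPKM. Jun, Fosb, Junb, Rgs2 and Gadd45a were named after their values were seen. Of 20 genes of NF-kB and its feedback, 15 were lower and 5 lay apart below (25%, beside 9.15% of all measured genes), with none above. Nfkbia, the inhibitor that NF-kB induces, stood at 96.1 and 78.9 FPKM and Tnfaip3 at 16.4 and 11.5 FPKM. WT stood below Het in all 5 genes apart and above KO in 4. The NF-kB list's median ratio was -0.07 for WT against Het (16 of 20 negative) and -0.02 for KO against WT (12 of 20 negative).

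**Figure D2:**
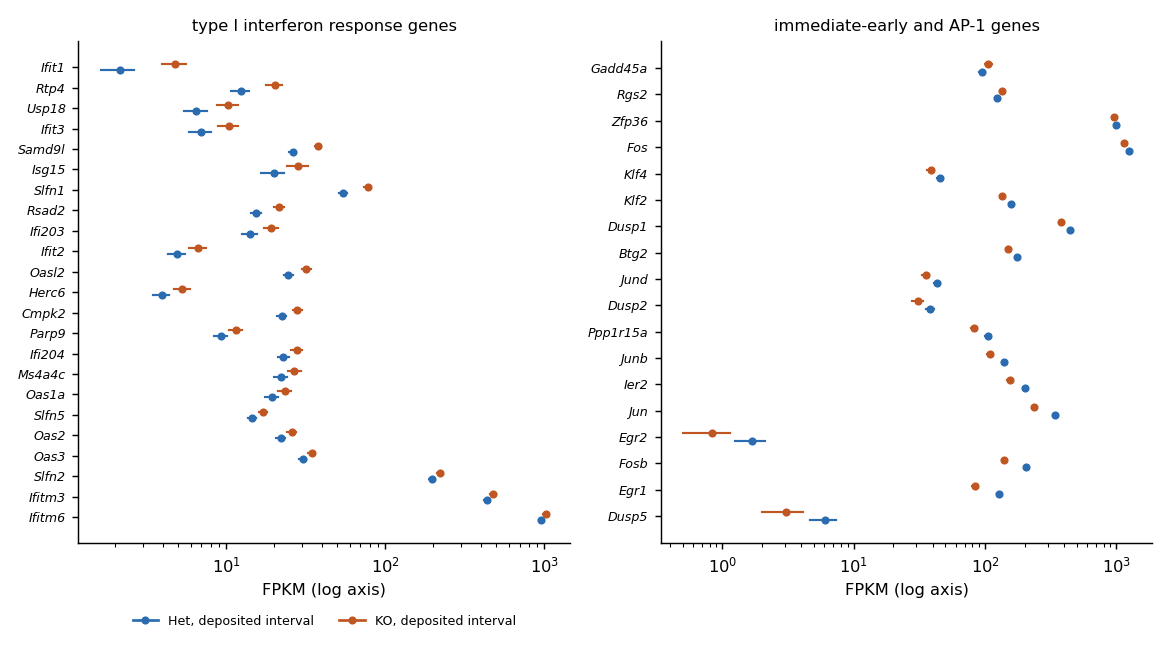
FPKM on a log axis in the Het (blue) and KO (orange) Gr1+Mac1+ libraries for the 23 interferon and 18 immediate-early genes whose intervals lay apart. Bars are the deposited intervals, which say nothing of the spread between mice. Every interferon gene drawn is higher in KO, and 16 of the 18 immediate-early genes are lower.

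Red cell membrane and skeleton genes were lower in KO than in Het, and the WT library stood above both. Of 29 measured members, 25 had a negative ratio, 15 lay apart below and none above, and the median was -0.26. The 15 are 51.7% of the list, beside 9.15% of all measured genes. Slc4a1 (band 3), the anion exchanger of red cells, stood at 162.4 FPKM in WT, 118.0 FPKM (115.1 to 120.8) in Het and 87.0 FPKM (84.4 to 89.7) in KO. Car2, a carbonic anhydrase, was at 218.6, 140.2 and 113.7 FPKM. The summed level of the list was 1286 FPKM in WT, 930.9 in Het and 800.9 in KO.

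The spectrin skeleton followed the same order. Spnb1 (beta-spectrin) stood at 12.7 FPKM in Het and 8.14 in KO, Spna1 (alpha-spectrin) at 9.99 and 7.98, and Ank1, which anchors spectrin to band 3, at 11.8 and 8.04. Kel, the blood group protein shown above, was at 18.4 and 14.3 FPKM. Those 4 were named after their values were seen. Bsg, the most abundant member, was at 142.1 and 147.1 FPKM.

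Factors that drive red cell genes were lower in part. Zfpm1 (Fog1), the partner of Gata1, was past the wider rule, though not after that correction (-0.47), at 11.7 FPKM (10.6 to 12.7) in Het and 7.41 FPKM (6.51 to 8.32) in KO. Klf1 stood at 11.8 and 7.61 FPKM and Tal1 at 8.90 and 6.23, while Gata1 itself was at 13.5 and 11.4 FPKM with overlapping intervals. Over this list of 15, 10 were lower, 4 of them beyond their intervals (26.7% of the list, beside 9.15% of all measured genes). Tfrc, the transferrin receptor, was the 1 gene apart above (6.67%, beside 9.5%), at 36.6 and 41.3 FPKM. Of 17 heme synthesis and iron import genes 14 were lower and 5 lay apart below (29.4%, beside 9.15%), with none above. Alas2, the erythroid first enzyme, stood at 94.5 and 90.3 FPKM with overlapping intervals.

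From Het to KO, globin RNA did not follow the membrane genes, though WT stood above both here as well. The 3 beta-globin loci summed to 13442.5 FPKM in WT, 9739 in Het and 10258 in KO, a log2 ratio of KO to Het of 0.07. The 4 alpha-globin loci summed to 14667, 11845 and 11882 FPKM. Single beta-globin loci went opposite ways, Hbb-b1 from 4013 to 2527 FPKM and Hbb-b2 from 505.9 to 2332 FPKM. These 2 loci overlap in the deposited table and the genes are near-identical, so the split between them is uncertain and only the sum was read. Cells of the red lineage are outside the Gr1 and Mac1 gate; their share of each pool was not tested.

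**Figure D3:**
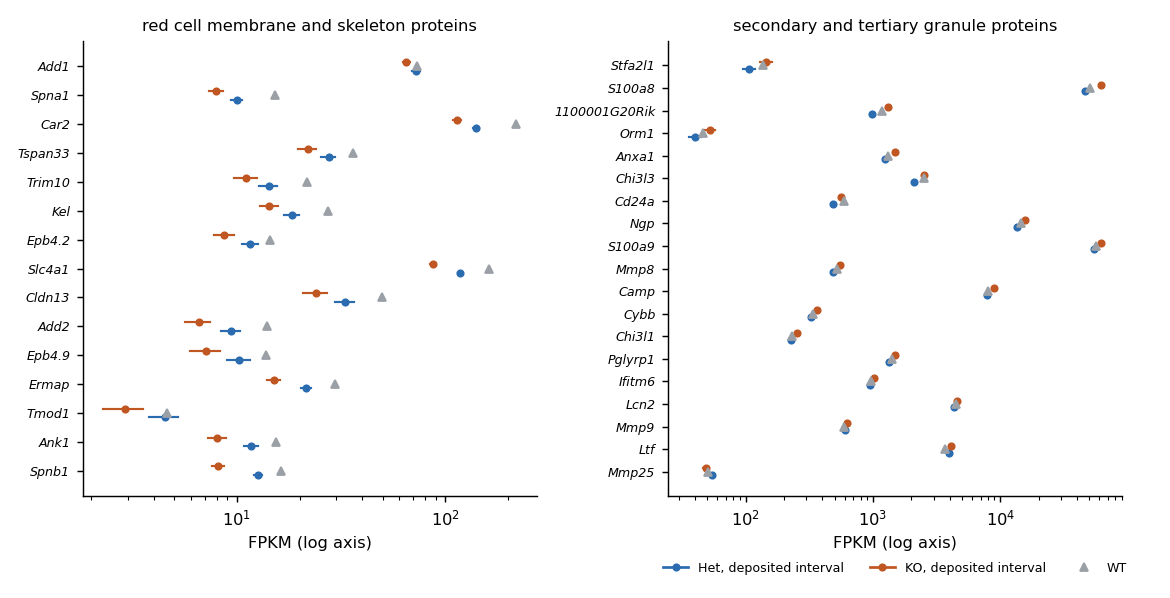
FPKM on a log axis in Het (blue) and KO (orange) with deposited intervals, and in WT (grey triangles), for genes whose Het and KO intervals lay apart. All 15 red cell genes are lower in KO, with WT at or above Het, and 18 of the 19 granule genes are higher in KO.

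Granule protein genes of late neutrophil precursors were higher in KO by small steps. Of 30 measured genes for secondary and tertiary granules and calprotectin, 26 had a positive ratio, and the median was 0.15. In this list 18 lay apart above (60%, beside 9.5% of all measured genes) and 1 (Mmp25) below (3.33%, beside 9.15%). S100a8 and S100a9, the 2 chains of calprotectin, had the highest levels of all measured genes. S100a8 stood at 46030.4 FPKM in Het and 61412 in KO, 1.33-fold, and S100a9 at 53959 and 61825. Ngp was at 13534 and 15593 FPKM, Camp (cathelicidin) at 7899 and 8987, and Ltf (lactoferrin) at 3940 and 4064. Primary granule genes had a median of 0.07 over 12 members, with 7 apart above (58.3%) and none below. Lyz2 and Lyz1, the lysozymes, stood at 6722 and 7067 FPKM and at 1103 and 1322 FPKM, and Mpo at 1554 and 1549 FPKM with overlapping intervals.

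Eosinophil, basophil and mast cell genes were higher in part. Of 22 measured members 15 had a positive ratio, and the median was 0.20. In this list 11 lay apart above (50%, beside 9.5% of all measured genes) and 3 below (13.6%, beside 9.15%). Prg2, the eosinophil major basic protein, stood at 4636 and 5399 FPKM, and Ear1 and Ear2, secreted RNases of eosinophils, at 1070 and 1364 and at 774.6 and 1045 FPKM. The Ear genes are near-identical, so their separate values are uncertain. Fcer1a, a chain of the IgE receptor, was past the wider rule at 6.16 and 10.5 FPKM. Il1rl1, the receptor of IL-33, was lower, at 3.53 and 2.06 FPKM.

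Monocyte and macrophage genes had a median of 0.15 over 33 members, with 23 positive. In this list 12 lay apart above (36.4%, beside 9.5% of all measured genes) and 3 below (9.09%, beside 9.15%). Cd5l and Spic, both marking the macrophages that recycle red cells, were past the wider rule, at 7.73 and 12.9 FPKM and at 2.91 and 5.39 FPKM. Vcam1 and C1qc, which the same macrophages express, stood at 29.4 and 40.3 and at 27.4 and 36.2 FPKM; this pair was named after its values were seen. Csf1r, the receptor of the macrophage growth factor, was lower, at 78.3 and 69.3 FPKM, and so was Fn1, at 143.7 and 113.3. Ly6c2, a marker of classical monocytes, stood at 1069 and 1267 FPKM.

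Of 28 B lineage genes 22 were lower, 7 lay apart below (25% of the list, beside 9.15% of all measured genes) and 2 above. The list's median ratio was -0.13 for WT against Het (19 of 28 negative) and 0.02 for KO against WT (14 of 28 positive). Dntt, which adds bases at rearranging antigen receptor genes, was at 9.36 and 5.90 FPKM. Cd3d, a T cell receptor subunit, was higher, at 4.11 and 7.35 FPKM. All 6 megakaryocyte markers were lower in KO than in Het, at levels from 1.27 to 26.2 FPKM in Het and from 0.858 to 19.7 in KO. Their sum was 41.6 FPKM in WT, 53.2 in Het and 38.8 in KO, so Het stood highest. Of the longer megakaryocyte and platelet list, 16 of 24 genes were lower. In it 2 lay apart below (8.33%, beside 9.15% of all measured genes) and 1 above (4.17%, beside 9.5%). Genes of the T and NK list had a median of 0.05 over 31 members, with 3 apart above (9.68%, beside 9.5%) and none below.

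**Figure D4:**
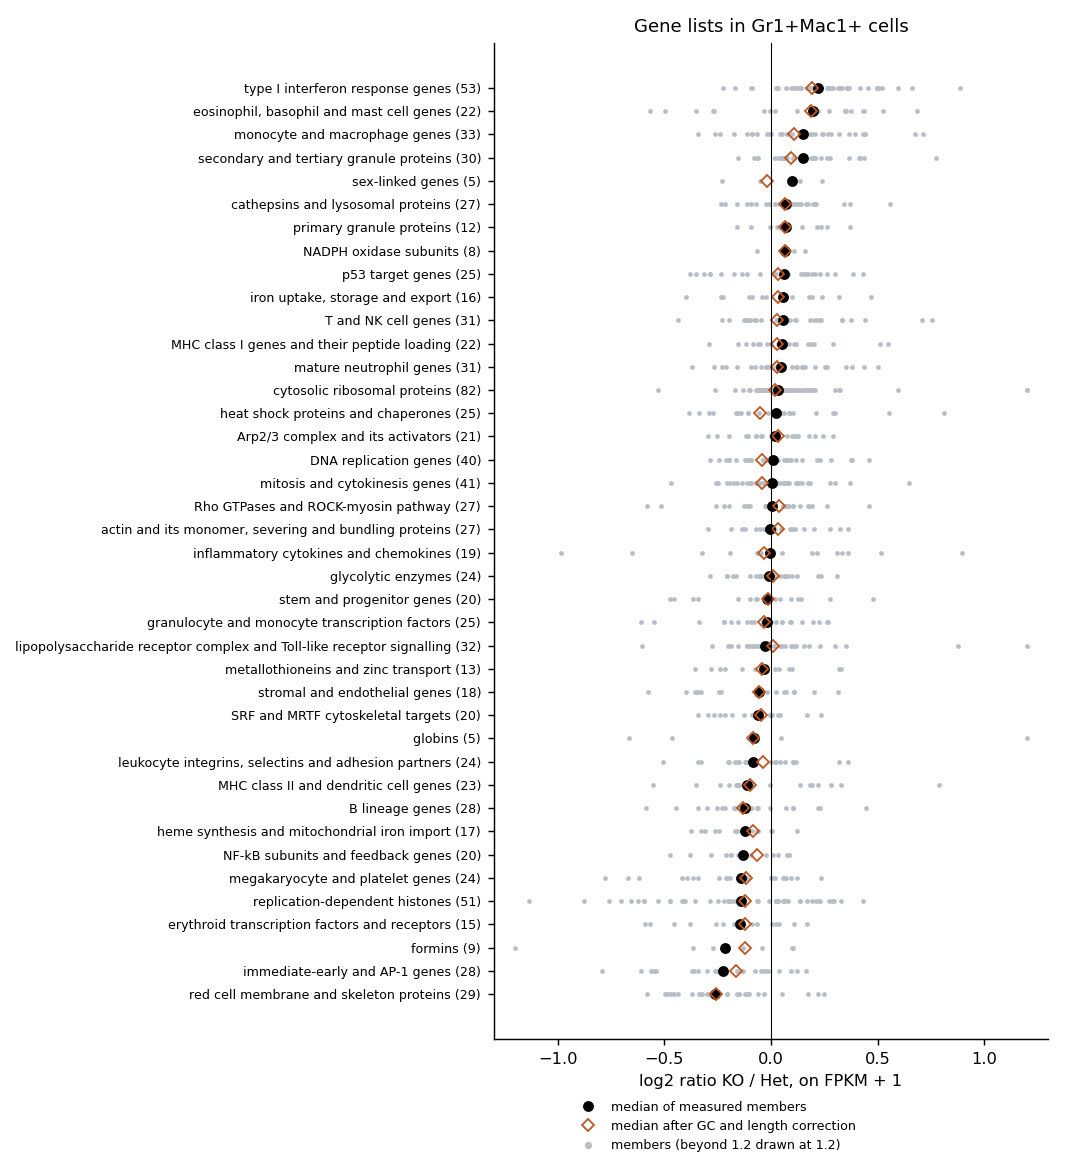
Log2 ratios of KO to Het (horizontal axis) for the measured members of 40 gene lists (rows, number of members in brackets), with members beyond the axis drawn at its edge, each list's median as a black dot and its median after correction for GC content and length as an open diamond. The interferon list lies at the upper end with a median of 0.22 and red cell membrane genes at the lower end with -0.26.

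Lists of general cell functions had medians from -0.14 to 0.07. The median was 0.0069 for 40 DNA replication genes, 0.0067 for 41 mitosis genes, 0.06 for 25 p53 targets, 0.07 for 27 lysosomal genes, of which 9 (33.3%) lay apart above and 1 below, and -0.01 for 24 glycolytic enzymes. It was -0.14 for 51 replication-dependent histone genes, none of them apart in its intervals. Pttg1 (securin), which holds sister chromatids together until anaphase, was the mitosis gene past the wider rule, at 16.6 and 26.6 FPKM. Chaperones had a median of 0.02, which was -0.05 after the GC correction described below.

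The remaining genes past the size rule are uncertain or small. Rps27 stood at 8.53 FPKM in Het, with an interval that reaches 0, and at 570.9 in KO, while WT had 5.79 and the Lin- libraries 4.63, 592.5 and 352.1 FPKM (WT, Het, KO). Rpl26 stood at 3.90 and 38.3 FPKM. Ribosomal protein genes have many near-identical copies, and these levels are uncertain; over the 82 genes of the list the median was 0.03, with 26 (31.7%) apart above and 3 below. Lgals6 was near 0 in Het and 7.43 FPKM in KO, and the sum with its copy Lgals4 went from 8.80 to 12.9 FPKM. Snhg9, a short host gene of a small RNA, was at 14.4 FPKM with an interval down to 0 in Het and is listed at 0 in KO. The small RNA loci (Snora21 higher; Snord35b, Snora3, Scarna6, Rnu11 and Snora28 lower) and the unnamed transcripts 1810044D09Rik (higher) and A730008H23Rik (lower) complete the 15 loci.

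Short of the size rule on the higher side came 10 genes with log2 ratios, with 1 FPKM added, from 0.78 to 0.96, Cd14 among them. In plain FPKM 5 of these (Mrpl32, Il18, Amn1, Actr6 and Dnajc12) differed by more than 2-fold. Mrpl32, a protein of the mitochondrial ribosome, stood at 13.7 and 27.5 FPKM. Il18, a cytokine that inflammasomes activate, was at 2.33 FPKM (1.31 to 3.35) and 5.19 FPKM (3.53 to 6.85). The others were Ormdl1, a brake on sphingolipid synthesis, Amn1, Actr6, an actin-related protein of chromatin, the co-chaperone Dnajc12, the Ly49 receptor Klra7, the glutathione transferase Gstk1 and Rpp30, a subunit of RNase P. All but Mrpl32, Ormdl1, Rpp30 and Cd14 were under 6 FPKM in KO.

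On the lower side 13 genes came short of the size rule, with log2 ratios from -0.99 to -0.69. In plain FPKM 4 of these (Cox6b2, Fabp4, Klf7 and Mrpl38) differed by more than 2-fold. Cox6b2, an isoform of a cytochrome oxidase subunit, stood at 36.1 and 17.6 FPKM, and Klf7, a zinc finger factor, at 14.14 and 6.999. Fabp4, which carries fatty acids, was at 12.6 and 6.04 FPKM, and Mrpl38, of the mitochondrial ribosome, at 10.1 and 4.96. Xrcc3, a DNA repair protein, stood at 7.79 and 4.27, and Mid1, a ubiquitin ligase on microtubules, at 7.55 and 4.03 FPKM. Beside Dusp5, the others were Nudt8, Rmnd1, Rabl5, D11Wsu47e, Mettl1, a tRNA methyltransferase, and Gpn3. No list held more than 3 genes past the wider rule.

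The ratio moved with the base composition of transcripts. Over the 11054 measured genes with a known GC content, the median ratio went from 0.16 in the tenth with the lowest GC (median 40.9%) to -0.10 in the tenth with the highest (59.8%), and Spearman's rho across genes was -0.36. The genes share their 2 libraries, so this describes the pair of libraries. In the same fraction rho was -0.32 for WT against Het and -0.09 for KO against WT, so that the relation was strong in both ratios that hold the Het library and weak in the one that does not. It was -0.04 for KO against Het in the Lin- fraction. Genes higher by the wider rule had a median GC content of 44.3% and those lower 53.9%, beside 50.7% for all. The middle 90 coding bases of a gene of each kind are shown, chosen after their values were seen, with G and C in capitals; 33 and 57 of the 90 bases are G or C.
Ly96 (coding bases 196 to 285): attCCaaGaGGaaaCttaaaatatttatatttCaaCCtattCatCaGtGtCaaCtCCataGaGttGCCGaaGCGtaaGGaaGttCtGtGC
Zfpm1 (coding bases 1447 to 1536): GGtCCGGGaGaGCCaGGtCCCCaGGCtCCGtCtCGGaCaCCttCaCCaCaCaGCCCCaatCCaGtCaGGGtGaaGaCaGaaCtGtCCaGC
Each gene's ratio was therefore also taken relative to measured genes of like GC content and length, an alternative chosen after seeing the data. The interferon median was then 0.19 with 46 of 53 positive, the immediate-early median -0.16 with 23 of 28 negative, and the red cell membrane median -0.26 with 25 of 29 negative. The granule median went from 0.15 to 0.09, that of formins from -0.22 to -0.12, and S100a9 from 0.20 to 0.02. Hbb-b2 and Lgals6 have no GC value and could not be corrected. Among loci with one, the size rule held 5 higher and 8 lower loci (38.5% higher) before the correction and 4 and 9 (30.8%) after it, with Ly96 the higher locus lost. The wider rule held 67 and 42 (61.5% higher) before and 31 and 34 (47.7%) after. Some genes named above were past the wider rule but came short of it after the correction. They were Rtp4, Usp18, Egr1, Zfpm1, Tlr9, Fcer1a, Spic, Pttg1, Klra7, Rpp30 and Lgals4. With library sums set equal after leaving out the 10 most abundant genes, the wider rule held 38 higher and 61 lower loci, 38.4% higher, in place of 69 and 44, 61.1% higher. What set the relation with GC was not tested.

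**Figure D5:**
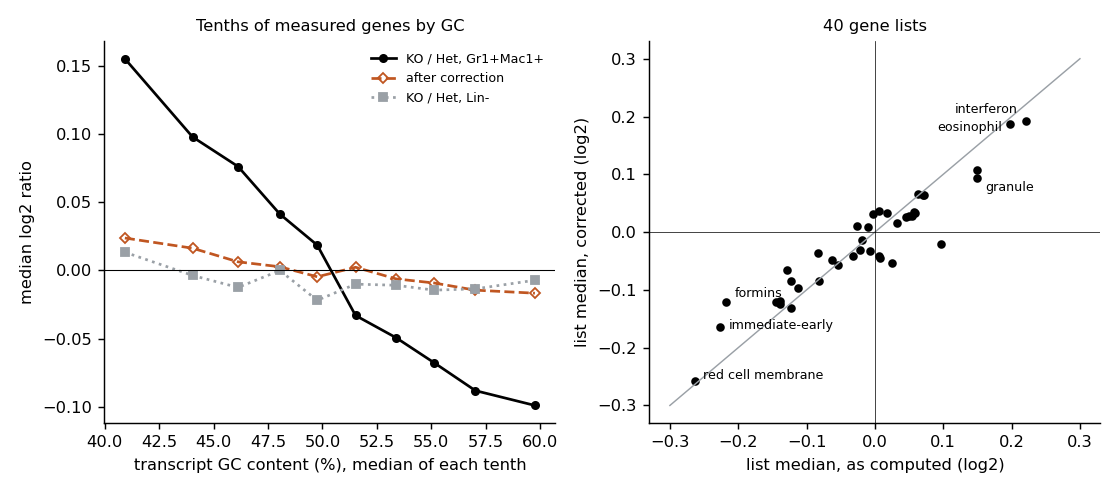
Left, the median log2 ratio of KO to Het in 10 equal groups of measured genes by transcript GC content (horizontal axis, percent), for the Gr1+Mac1+ libraries before and after the correction and for the Lin- libraries; the black line goes from 0.16 to -0.10. Right, the medians of 40 gene lists before (horizontal) and after (vertical) the correction, with the line of equality; the interferon, immediate-early and red cell lists keep their sign.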

How the data were processed

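Each library's gene table gives FPKM, which the authors computed per gene locus with lower and upper bounds and a status, per the file headers; the deposited FPKM values were used as they stand. The build is mm10, and TopHat2 2.0.7 and Cufflinks 2.0.2 are named in the submitters' processing notes; no source used here gives their roles or the annotation. The width of the bounds, read as counting error, implied 10240000 fragments for Het and 8630000 for KO. A gene's counting SE was taken as its half-interval over 2. For some genes the width holds more than counting error. For Rps27, 8.53 FPKM in Het implied 1.52 fragments and 570.9 FPKM in KO implied 519. The ratios, the rules of 2-fold and 1.5-fold, the 40 gene lists (1148 of 1165 symbols matched) and the correction in 20 bins of GC content and length (GENCODE M21 transcripts) were computed with Python 3.11.15, numpy 2.4.6 and pandas 2.3.3. Members, lists and rules were chosen with earlier results of these data known. Genes named are Diap1 and Cd14; 15 in each direction past the size rule, filled with the largest ratios at 5 FPKM or more with intervals apart; and, per list, up to 4 past the wider rule and the 3 most abundant, passing over unnamed, duplicated and small RNA loci; all other genes in the text were chosen after their values were seen. Locus starts are 1-based. The closing section gives the other pseudocounts, level filters, folds and scalings tried. A few members of the lists are counted but not reported here by name.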

Additional observations from a re-analysis of the deposited data

Results flagged for a closer look

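For 5 named genes, levels differed between KO and Het in opposite directions in the 2 fractions, with intervals apart in both. The difference between fractions was not tested, since each rests on 1 library per genotype. In the Lin- libraries the log2 ratio of KO to Het was 0.93 for Dntt, 1.06 for Hbb-b1 and 0.13 for Zfpm1, all lower in KO in the Gr1+Mac1+ libraries (-0.59, -0.67 and -0.59). It was -0.74 for Rpl26 and -0.75 for Rps27, both higher in KO in the Gr1+Mac1+ libraries (3.005 and 5.91). The Lin- libraries differed in their makeup. Granulocyte markers summed to 7745 FPKM in the Het Lin- library and 81.9 FPKM in the KO one, and erythroid markers to 5434 and 10006 FPKM. Hbb-b1, Rpl26 and Rps27 have near-identical copies, so their levels are uncertain.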

How the results depend on the processing

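No paired analysis was possible because each genotype has 1 library in this fraction and the labels give no replicate numbers, and no replicate could be left out. The counts by the size rule, 7 higher and 8 lower, moved with its limits. Higher loci numbered 13 with a pseudocount of 0.1, 19 with a minimum of 1 FPKM or none, 4 with a minimum of 20 FPKM, 69 at 1.5-fold, 53 without the interval criterion, 4 after the GC and length correction (of 5 that have a GC value) and 3 without small RNA, unnamed, duplicated and copied loci. Lower loci numbered 21 with a minimum of 1 FPKM or none, 44 at 1.5-fold, 36 without the interval criterion and 2 without small RNA, unnamed, duplicated and copied loci. The correction and the removal of those loci were chosen after seeing the data. Setting library sums equal without the 10 most abundant genes scaled KO by 0.957; list medians were then -0.065 for actin, -0.19 for NF-kB, -0.068 for cytokines, 0.16 for interferon, -0.18 for B lineage, -0.18 for MHC class II, -0.032 for ribosomal proteins, -0.054 for mitosis and -0.072 for glycolysis. A pseudocount of 5 gave interferon 0.18, and the correction gave ribosomal proteins 0.016. The Diap1 log2 ratio was -3.04 with a pseudocount of 0.1 and -2.11 with 5. Of 40 list medians, the sign changed for 7 under the correction, 10 under that scaling, 2 with all members of status OK and 1 with a mean of at least 5 FPKM, and for none under the other pseudocounts or the median scaling. The cause of these moves was not tested.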
